A study of Mus musculus with 12 samples.

Results

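Pillar cells of the adult mouse cochlea are described here by their own RNA profile, that is, by which genes they held, at what level, and in which functions. The members were the 6 pillar cell samples among the 12 samples of the series. Each sample was 1 of 2 sequencing lanes of a library, so lanes were averaged in pairs, which gave 3 pillar cell libraries of 6 libraries in all. The other 3 libraries came from Deiters' cells, the supporting cells that sit next to pillar cells, and served as the comparison. A further set of members was picked by value. It held the genes above 1 RPKM in each of the 3 pillar cell libraries whose mean in Deiters' cells was below 0.1 RPKM, and 79 of the 48440 features of the table met that rule.

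Both groups came from adult CBA/J mice of 28 to 32 days, and the labels name no treatment, transgene or reporter. Cells were loosened from the organ of Corti with enzyme, told apart by their shape, and drawn up singly into glass pipettes until about 1000 were pooled for a library. According to the methods, cells of several mice were pooled, most cells probably came from the middle and apical turns, and both cell types were taken from each animal. Pillar and Deiters' cell libraries may therefore share mice, and inner and outer pillar cells were not separated.

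Inner and outer pillar cells are the supporting cells that wall in the tunnel of Corti, and they are known for the bundles of microtubules and actin filaments that run from their foot on the basilar membrane to their head at the surface of the epithelium. Like other supporting cells they are coupled by gap junctions made of the connexins Gjb2 and Gjb6, and they take part in clearing potassium and glutamate around the hair cells. During development of the mouse cochlea, fibroblast growth factor from inner hair cells acts on the receptor Fgfr3 and directs precursors to become pillar cells, while Notch signals keep supporting cells apart from hair cells.

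The unit throughout is RPKM, a read number divided by the length of the transcript and by the mapped reads of its library, so levels of different genes are compared per length. The pillar cell libraries held 19101067 to 20189515 reads and the Deiters' cell libraries 18641169 to 21557476 reads, as worked out from the steps between low values, and 1 read in a transcript of 1 kb stood for 0.052 RPKM. Values after ± are the SD over 3 libraries for levels and the SE for log2 differences. Differences between the cell types were tested with limma on log2(RPKM + 0.1), a scale on which the fold of a low gene is understated, and positive values mean higher in pillar cells. Calls needed an adjusted p no higher than 0.01 and at least a 2-fold difference. Of 17188 genes tested, 2534 (14.7%) were called higher in pillar cells and 2404 (14%) higher in Deiters' cells, and the median log2 difference of all tested genes was 0.00. Shares called within a list are to be read beside these. With 3 libraries in each cell type the smallest two-sided p of an exact permutation test is 0.1, so single genes rest on the fit across all genes. By the mouse numbers in the methods, each replicate was a pool of its own mice. The labels tie no library to an animal, so this could not be checked here. The p-values measure the spread between these libraries. Whether that is spread between pools of mice or only between library preparations was not tested.

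A set of features stood apart by lane. The lanes of both cell types were sorted together into a pair of sets by their values. A feature was counted as differing by lane set if the sets differed over 2-fold in each cell type, in the same direction. Of the features above 1 RPKM in any lane, 526 met this definition, so their shared direction is no separate result. The first set, A, held 2 pillar cell lanes and 4 Deiters' cell lanes, and the other, B, held 4 and 2, so the lane set is partly confounded with the cell type. Among the 526 features, 36 were called between the cell types, 15 of them higher in pillar cells, and both lane sets held lanes of both cell types. Within the lanes of each set, 11 of the 36 were called in the same direction in both sets, and 10 in neither, so for the latter a difference between cell types was not seen apart from the lane set. Of the 378 that were above 1 RPKM in pillar cells, 222 were predicted genes or pseudogenes. The 4 haemoglobin genes Hba-a1, Hba-a2, Hbb-bs and Hbb-bt were among the 526, as were Pgk1, Hspa8, Cycs, Tubb2b and Nefm.

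Markers of hair cells were measured in both cell types and were mostly higher in pillar cell libraries, beside 14.7% of all tested genes. Of 31 hair cell markers tested, 27 were higher in the pillar cell libraries and only Myo6, an unconventional myosin, was higher in the Deiters' cell libraries, at 33.3, 34.2 and 33.9 against 108, 107 and 112 RPKM. The summed level of the whole list of 32 was 2194, 2121 and 2189.6 RPKM in pillar cells against 529.6, 537 and 531 RPKM in Deiters' cells. Prestin, Slc26a5, the motor protein of outer hair cells, lay at 24.6, 26.4 and 28.1 RPKM in the pillar cell libraries and 1.37, 1.23 and 1.69 RPKM in the Deiters' cell libraries (log2 difference 4.12 ± 0.12 SE, adjusted p = 6.2e-07). Slc17a8, the vesicular glutamate transporter of inner hair cells, lay at 20.1, 21 and 20.9 against 1.62, 1.37 and 1.22 RPKM. For both of these defining genes, every pillar cell library was far above any Deiters' cell library. The hair cell transcription factor Pou4f3 lay at 13.4, 14.4 and 14.6 against 2.28, 1.74 and 1.55 RPKM and Atoh1 was listed at 0 in all 6 libraries. In bulk samples like these, fewer cells of a type and less RNA per cell cannot be told apart, and the part of hair cells in the results below was not tested.

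The label was checked against markers. All of Ednrb, Slc1a3, S100a6, S100b, Gsn and Gpx2, a set that was chosen with results of these data known and is therefore no independent support, were higher in every pillar cell library than in any Deiters' cell library. Ednrb, the type B endothelin receptor, lay at 62.1, 61.7 and 63.9 RPKM in the pillar cell libraries and 0.585, 0.450 and 0.518 RPKM in the Deiters' cell libraries (log2 difference 6.67 ± 0.08 SE, adjusted p = 3.9e-08). Slc1a3, the glial glutamate and aspartate transporter GLAST, lay at 212, 214 and 213 against 5.82, 5.28 and 5.49 RPKM (log2 difference 5.24 ± 0.04 SE, adjusted p = 1.5e-08). S100a6, a small calcium-binding protein, followed with 40.9, 43.8 and 42.0 against 2.89, 2.89 and 2.31 RPKM and a log2 difference of 3.93 ± 0.09. The libraries of a cell type lay close together for these genes, and the gap was many times their spread. S100b, a related calcium-binding protein and a common marker of supporting cells, showed the smallest gap of the set, at 446, 454 and 474 against 173, 189 and 169.9 RPKM and a log2 difference of 1.37 ± 0.05.

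Textbook markers of pillar cells gave a mixed result. Of 13 that were tested, 5 were higher in pillar cells (38.5%), 4 were higher in Deiters' cells (30.8%) and 4 were not called. All genes had 14.7% and 14%. The median log2 difference was 0.70 against 0.00 over all genes. Among the 5 were S100a6 and S100b, which belong to the given set above and are no independent support. Bmp2, also among the 5, was picked by value on this same contrast, so its call is no independent support either. These genes also enter the median. The progenitor and supporting cell factor Sox2 lay at 31.5, 31.4 and 31.7 against 12.1, 13 and 13 RPKM (log2 difference 1.31 ± 0.04). Bmp2, a bone morphogenetic protein, was at 4.04, 4 and 3.75 against 0.0259, 0.0438 and 0.0302 RPKM and belonged to the 79 genes picked by value. It is also on the list of markers of Hensen and Claudius cells and the outer sulcus. Fgfr3, the receptor that directs pillar cell fate, lay at 21, 22.7 and 22.2 against 13.9, 13 and 13.6 RPKM, and with a log2 difference of 0.70 ± 0.04 it did not reach the 2-fold limit although the libraries did not overlap. The transcription factor Prox1 was low in both, at 0.378, 0.418 and 0.342 against 0.0998, 0.167 and 0.192 RPKM, and was not called. Cryab, a small heat shock protein, was higher in Deiters' cells at 344, 335 and 352 against 732, 768 and 737 RPKM. The Notch target Hey2 was higher there too, at 2.82, 2.92 and 2.74 against 7.13, 7.02 and 6.52 RPKM, and so was the Wnt receptor Lgr5, at 1.61, 1.82 and 1.53 against 5.10, 5.38 and 5.52 RPKM. For each of the 3 the cell types did not overlap. Ngfr, the low-affinity neurotrophin receptor, was at 0.0143, 0 and 0.0305 against 0.0136, 0.105 and 0.124 RPKM and too low to be tested. Etv4, a target of FGF signals, was called at 0.399, 0.185 and 0.405 against 0.0450, 0.0669 and 0 RPKM, and this call was lost in 7 of the alternative settings, among them a pseudocount of 1 RPKM and the settings without pillar cell library 1 or 3 or without Deiters' cell library 1.

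**Figure D1:**
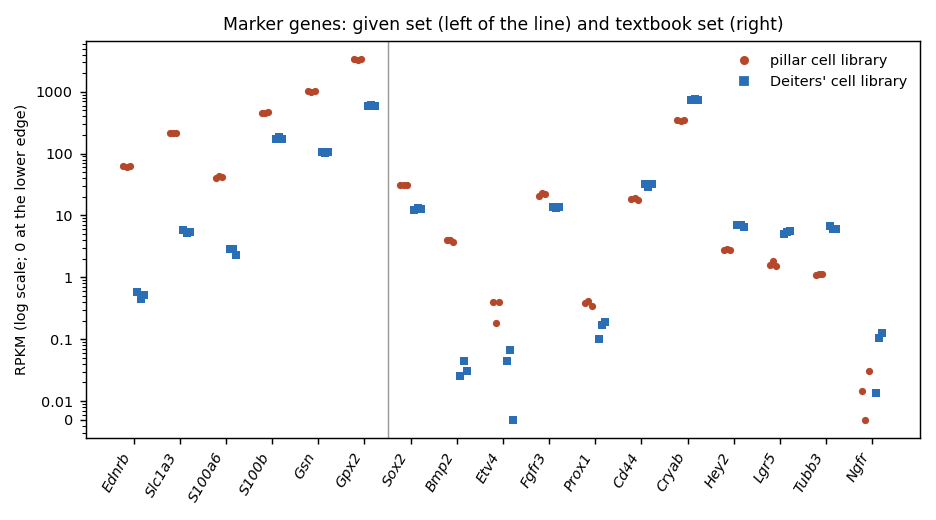
Level of marker genes in RPKM on a log axis in each of 3 pillar cell libraries (circles) and 3 Deiters' cell libraries (squares), with values of 0 at the lower edge. The 6 genes left of the line were higher in every pillar cell library, while among the textbook genes on the right Sox2 and Bmp2 were higher in pillar cells and Cryab, Hey2, Lgr5 and Tubb3 were higher in Deiters' cells.

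The profile of pillar cells was led by a few very abundant genes. By their mean, 15602 genes were above 0.1 RPKM, 11550 above 1, 4710 above 10, 591 above 100 and 32 above 1000 RPKM, and 11163 were above 1 RPKM in all 3 libraries. The most abundant gene took 3.06% of the summed RPKM, the 20 most abundant took 24.4% and the 100 most abundant 39.3%. In Deiters' cells the corresponding shares were 7.06%, 26.1% and 39.9%. Of the 100 most abundant genes, 93 were protein coding and 13 were from the mitochondrial genome. Of these 100, 29 were called higher in pillar cells, 8 higher in Deiters' cells and 63 were not called, beside 14.7% and 14% called over all genes.

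S100a1, a calcium-binding protein of the S100 family, was the most abundant gene at 12245, 12072 and 12078 RPKM in the pillar cell libraries and 28585, 30415 and 27386 RPKM in the Deiters' cell libraries, and was higher in Deiters' cells (log2 difference -1.25 ± 0.05 SE, adjusted p = 2.0e-06). Fbxo2, an F-box protein that recognises glycoproteins for ubiquitin ligase and is abundant in the cochlea, came next at 11662, 11048 and 11381 against 15396, 15438 and 14868 RPKM. Skp1a, the adaptor that links F-box proteins to the ligase, came in the fifth place at 6038, 6043 and 6259 against 9615, 10004 and 10157 RPKM. For both the Deiters' cell libraries were the higher ones without overlap, and neither reached 2-fold. Ftl1, the ferritin light chain, lay at 3909 ± 57.8 against 3950.2 ± 122 RPKM. The nuclear noncoding RNA Malat1 was at 3907 ± 126 against 2296 ± 106 RPKM, and Ubb, a polyubiquitin gene, at 3868 ± 193 against 3348 ± 76.9 RPKM. None of these 3 was called. Ptgds, prostaglandin D synthase, stood at 3416 ± 129 against 1869 ± 51.1 RPKM. Ceacam16, a protein of the tectorial membrane, was at 3113 ± 100.0 against 2242 ± 62.0 RPKM, and neither was called. Among nuclear genes of the top 20, only Gpx2 and the calmodulin gene Calm2 were called higher in pillar cells. Gpx2, a glutathione peroxidase, lay at 3417, 3325 and 3378 RPKM in the pillar cell libraries and 596, 602 and 594 RPKM in the Deiters' cell libraries (log2 difference 2.50 ± 0.02 SE, adjusted p = 2.3e-08). Calm2 lay at 2707, 2703 and 2654 against 1159, 1229 and 1230.4 RPKM, with a log2 difference of 1.16 ± 0.03.

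**Figure D2:**
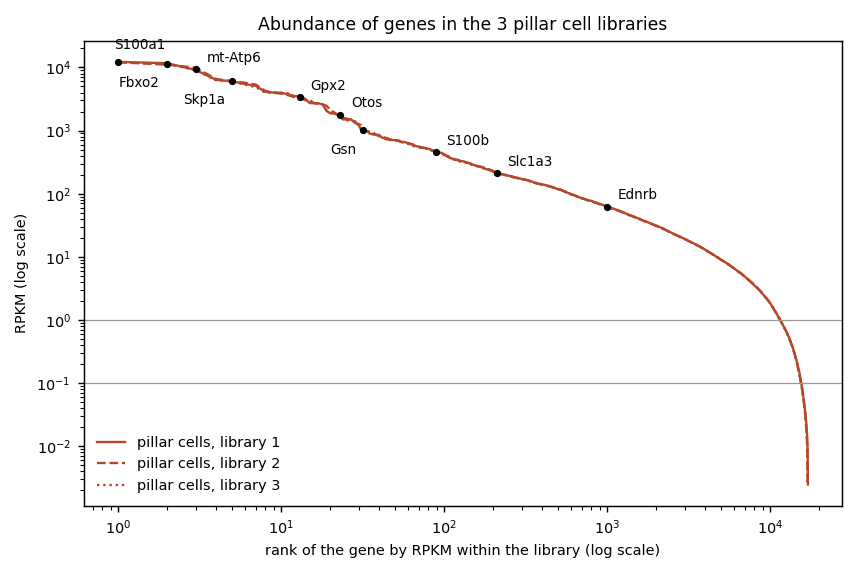
RPKM of each gene above 0 against its rank within the library, both on log axes, for the 3 pillar cell libraries, with grey lines at 0.1 and 1 RPKM. The curves of the 3 libraries lie on each other, S100a1 and Fbxo2 stand at the top, and Ednrb lies at rank 1003.

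Genes of the mitochondrial genome stood out among the abundant ones. Together the 37 genes of that genome took 10.7%, 11.3% and 10.7% of the summed RPKM in the pillar cell libraries against 4.22%, 4.35% and 4.27% in the Deiters' cell libraries. Of the 13 that code for proteins of the respiratory chain, 11 were higher in pillar cells and none was higher in Deiters' cells. All genes had shares of 14.7% and 14%. The median log2 difference of the 13 was 1.26. mt-Atp6, a subunit of ATP synthase, came in the third place at 9117, 9892 and 9065 RPKM in the pillar cell libraries and 3844, 4017 and 3859.6 RPKM in the Deiters' cell libraries (log2 difference 1.26 ± 0.04). mt-Nd1, a subunit of complex I, lay at 5106, 5352 and 4882 against 1645, 1663 and 1610.5 RPKM (log2 difference 1.64 ± 0.04). mt-Co2 and mt-Co3, subunits of cytochrome c oxidase, were the exceptions, at log2 differences of 0.69 ± 0.04 and 0.98 ± 0.04, which were under the 2-fold limit. The 38 nuclear genes of the respiratory chain did not share this pattern, since none was called in either direction and their median log2 difference was -0.17. Cox8a, a nuclear subunit of cytochrome c oxidase, lay at 724 ± 7.10 against 1034 ± 82.6 RPKM, and Ndufa1, of complex I, at 551 ± 19.2 against 500.2 ± 38.4 RPKM. Hair cell markers were higher in the same libraries, as given above, and their part in the mitochondrial share was not tested.

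The cytoskeleton, for which pillar cells are known, was described by 38 microtubule genes, 33 actin network genes and 15 intermediate filament genes that were tested. Microtubule genes were abundant in pillar cells, 34 of them above 1 RPKM, led by the alpha tubulins Tuba1a and Tuba1b. Tuba1a lay at 494, 527 and 462 RPKM in the pillar cell libraries and 672, 638 and 549 RPKM in the Deiters' cell libraries (log2 difference -0.32 ± 0.08). Tuba1b lay at 442, 408 and 427 against 757, 745 and 806 RPKM (log2 difference -0.85 ± 0.04). For both, every Deiters' cell library was above the pillar cell libraries by less than 2-fold. The counts were 6 higher in pillar cells (15.8%) and 4 lower (10.5%), close to the shares over all genes, and the median log2 difference was -0.23. Those higher in pillar cells included Tuba8, a divergent alpha tubulin, at 32.5, 29.6 and 31.8 against 3.81, 3.49 and 3.34 RPKM (log2 difference 3.11 ± 0.06). They also included Nin, ninein, a protein that anchors the minus ends of microtubules and is known at the apical anchoring sites of pillar cells, at 13.9, 14.2 and 14.2 against 2.73, 3.21 and 2.73 RPKM (log2 difference 2.25 ± 0.07). Tubb6, a beta tubulin, lay at 4.06, 3.43 and 4.31 against 0.477, 0.591 and 0.886 RPKM. Camsap2, another minus-end protein, was higher in Deiters' cells at 4.28, 5.06 and 5.03 against 21.8, 20.3 and 21.1 RPKM. The neuronal beta tubulin Tubb3 was higher there as well, at 1.09, 1.12 and 1.15 against 6.75, 6 and 6.15 RPKM. Tubulin genes have near-identical copies, so the split of reads among them is uncertain.

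Actin network genes were called higher in pillar cells in 8 of 33 cases (24.2%) and higher in Deiters' cells in 2 (6.06%). Over all genes the shares were 14.7% and 14%. Gsn, gelsolin, which severs and caps actin filaments, was the most abundant of the list, at 1018, 999 and 1018 RPKM in the pillar cell libraries and 105, 104 and 105 RPKM in the Deiters' cell libraries (log2 difference 3.27 ± 0.02 SE, adjusted p = 1.4e-08). The libraries of each cell type lay close together and did not overlap. Fscn2, fascin 2, lay at 31.7, 27.4 and 31.0 against 2.88, 1.94 and 2.01 RPKM (log2 difference 3.68 ± 0.15). Msn, moesin, which links actin to the membrane, lay at 3.44, 3.69 and 3.88 against 0.425, 0.377 and 0.390 RPKM (log2 difference 2.92 ± 0.09). Lcp1, a bundling protein best known from blood cells, lay at 21.1, 21.3 and 21.1 against 6.96, 6.27 and 6.88 RPKM. Fscn2 and Espn, the latter at 7.52, 6.65 and 7.23 against 1.92, 2.13 and 1.73 RPKM, are known from the hair bundle, and hair cell markers were higher in the same libraries. Tmsb4x, a thymosin that binds actin monomers, was higher in Deiters' cells at 515, 513 and 570.0 against 1784, 2069 and 1865 RPKM (log2 difference -1.84 ± 0.07). Actg1 and Pls1, which build the filament bundles of this epithelium, were at 604 ± 15.1 against 723 ± 14.8 RPKM and 77.8 ± 1.85 against 63.0 ± 2.29 RPKM, and neither was called.

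Intermediate filament genes were called in both directions, 3 of 15 higher in pillar cells (20%) and 5 lower (33.3%), with a median log2 difference of -0.57. All genes had 14.7% and 14%. The epithelial keratins Krt19, Krt18 and Krt8 were among those higher in Deiters' cells. Krt19 lay at 60.3, 58.1 and 61.0 RPKM in the pillar cell libraries and 208, 208 and 206 RPKM in the Deiters' cell libraries (log2 difference -1.79 ± 0.03). Krt18 lay at 21.4, 20.7 and 20 against 42.8, 48.3 and 47.0 RPKM and its partner Krt8 at 8.72, 8.61 and 10.9 against 24.5, 25.2 and 23.7 RPKM. Vim, vimentin, was not called at 31.4 ± 0.840 against 37.5 ± 0.595 RPKM. The 3 genes higher in pillar cells were all low, and their calls were lost with a pseudocount of 1 RPKM. Des, desmin, lay at 1.77 ± 0.0813 against 0.476 ± 0.181 RPKM, the glial filament gene Gfap at 0.812 ± 0.0704 against 0.243 ± 0.0719 RPKM and Nes, nestin, at 0.434 ± 0.0531 against 0.133 ± 0.0142 RPKM. For Gfap the call was also lost in the lanes of set A alone.

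Of 34 adhesion and tight junction genes, 3 were higher in pillar cells and 3 lower (8.82% each), beside 14.7% and 14% over all genes. Cldn9, a claudin that seals the apical border of the organ of Corti, was the most abundant at 1873, 1825 and 1804 RPKM in the pillar cell libraries and 1157, 1101 and 1092 RPKM in the Deiters' cell libraries, and with a log2 difference of 0.72 ± 0.03 it was not called. Epcam, an epithelial adhesion molecule, lay at 445 ± 4.03 against 265 ± 2.85 RPKM and was not called. Cdh2, N-cadherin, was the gene with the widest gap, at 7.58, 7.14 and 7.5 against 0.132, 0.129 and 0.173 RPKM (log2 difference 4.94 ± 0.11 SE, adjusted p = 2.5e-07), while E-cadherin, Cdh1, lay at 28.7 ± 1.57 against 43.1 ± 1.29 RPKM and was not called. Marveld2, tricellulin, a protein of the corners where 3 cells meet, was higher in pillar cells at 13.5, 13.4 and 13.4 against 6.04, 5.57 and 5.36 RPKM. F11r, a junctional adhesion molecule, was higher in Deiters' cells at 79.6, 80.0 and 82.4 against 200.2, 197 and 202 RPKM. The claudin gene Cldn4, at 1.39 ± 0.360 against 4.86 ± 0.559 RPKM, and P-cadherin, Cdh3, at 0.410 ± 0.0630 against 2.09 ± 0.272 RPKM, were higher there as well. Cldn11 was called at 3.23, 3.64 and 3.60 against 1.58, 2.05 and 1.43 RPKM, but this call was lost in 7 of the alternative settings, among them the lanes of set B alone and each of 4 settings that left out a library (pillar cell library 2 or 3, Deiters' cell library 1 or 3).

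The gap junction genes Gjb2 and Gjb6 were among the 50 most abundant genes of pillar cells. Gjb2 lay at 766, 779.9 and 776 RPKM in the pillar cell libraries and 1164, 1123 and 1167 RPKM in the Deiters' cell libraries, and Gjb6 at 721, 719 and 697 against 1395, 1362 and 1402 RPKM. Both were higher in all Deiters' cell libraries, at log2 differences of -0.57 ± 0.03 and -0.96 ± 0.03, and neither reached 2-fold. All other connexin and pannexin genes of the list were below 1 RPKM in pillar cells, and 7 of the 14 genes were listed at 0 there. Gja1, the connexin of many glial and heart cells, was called higher in pillar cells at 0.622, 0.573 and 0.470 against 0.0595, 0.234 and 0.225 RPKM, with the call lost in 11 of the alternative settings, among them each that left out a library except Deiters' cell library 3.

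Genes for potassium and chloride handling were called in both directions, 11 of 36 higher in pillar cells (30.6%) and 5 lower (13.9%), with a median log2 difference of 0.32. The shares over all genes were 14.7% and 14%, so the share lower was close to that of all genes. Slc12a7, the potassium chloride cotransporter KCC4 that is needed for hearing in mice, was the most abundant of the list in pillar cells, at 337, 346 and 341 RPKM in the pillar cell libraries and 146, 139 and 147 RPKM in the Deiters' cell libraries (log2 difference 1.24 ± 0.03 SE, adjusted p = 3.1e-07). The inward rectifier channels Kcnj16, at 276 ± 7.25 against 395 ± 4.94 RPKM, and Kcnj10, at 33.5 ± 0.762 against 25.0 ± 1.39 RPKM, were not called. Nor was the leak channel Kcnk1, at 123 ± 2.25 against 133 ± 1.85 RPKM. Fxyd2, the gamma subunit of the sodium pump, was far higher in pillar cells at 54.9, 50.9 and 49.7 against 3.60, 3.86 and 3.06 RPKM (log2 difference 3.86 ± 0.09). Atp1b2, a beta subunit, was higher at 39.6, 36.5 and 39.2 against 16.3, 15.7 and 15.3 RPKM. The cell types did not overlap for either subunit. Kcnk2, a stretch-sensitive potassium channel, lay at 9.31, 9.15 and 9.82 against 0.516, 0.357 and 0.521 RPKM (log2 difference 4.09 ± 0.13). Kcnma1, the large-conductance potassium channel that is also abundant in inner hair cells, lay at 6.51, 6.41 and 6.56 against 0.476, 0.430 and 0.379 RPKM. Kcnk5 stood at the other end. It was listed at 0 in all pillar cell libraries and lay at 4.58, 4.38 and 4.80 RPKM in the Deiters' cell libraries. Clic6, a chloride channel protein, was higher in Deiters' cells as well, at 14.3, 13.5 and 14.3 against 99.6, 99.6 and 102 RPKM.

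Water and acid-base genes split in both directions, with 6 of 21 higher in pillar cells (28.6%) and 7 lower (33.3%). All genes had 14.7% and 14%. Car14, a membrane-bound carbonic anhydrase that faces the outside of the cell, was the most abundant of the list in pillar cells at 545, 534 and 518 RPKM in the pillar cell libraries and 81.9, 82.1 and 79.3 RPKM in the Deiters' cell libraries (log2 difference 2.71 ± 0.03 SE, adjusted p = 2.8e-08). Slc4a11, a transporter of the bicarbonate family, was also higher in pillar cells at 33.5, 34.6 and 31.7 against 10.8, 10.5 and 11 RPKM. The aquaporin Aqp4 was lower in pillar cells, at 16, 15.5 and 16.2 against 75.1, 73.8 and 75.4 RPKM, and Aqp11 lay at 32.7, 33.4 and 30.7 against 79.1, 77.5 and 80.2 RPKM. The cytosolic carbonic anhydrase Car13 was lower as well, at 37.5, 39.3 and 37.5 against 145, 144 and 144 RPKM. Slc9a3r1, a scaffold of ion transporters, lay at 119, 121 and 112 against 300.4, 294 and 303 RPKM and was also lower. Car3 lay at 402, 401 and 389.7 against 809.7, 792 and 808 RPKM, and its call, at a log2 difference of -1.01 ± 0.02, was lost in 3 of the alternative settings (the lanes of set B alone, without pillar cell library 3, and another scaling). Car2, the common cytosolic form, was at 271 ± 4.4 against 181 ± 3.28 RPKM and was not called.

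Calcium-binding and calcium transport genes held the largest share of genes higher in pillar cells among the lists for ion homeostasis. Of 31 tested, 15 were higher in pillar cells (48.4%) and 3 lower (9.68%), with a median log2 difference of 0.92, beside 14.7% and 14% over all genes. Several of the 15 are also markers of other cells. Calb2, Ocm, Cib2 and Pvalb are on the hair cell list, and S100a8 and S100a9 are on the neutrophil list, and both lists summed higher in the pillar cell libraries. S100a6 and S100b, also among the 15, belong to the given marker set. Of the rest, Atp2a3, the pump that fills calcium stores known as SERCA3, had the widest gap at 118, 116 and 115 against 5.90, 5.45 and 5.55 RPKM (log2 difference 4.34 ± 0.04 SE, adjusted p = 2.3e-08). Atp2b1, a pump of the plasma membrane, lay at 45.3, 44.9 and 47.8 against 12.4, 12.4 and 12.8 RPKM (log2 difference 1.87 ± 0.04). Of the hair cell list, Calb2, calretinin, was at 657, 623 and 632 against 186, 179.7 and 181 RPKM. S100a13 was higher in Deiters' cells at 487, 512 and 504 against 1660.3, 1844 and 1564 RPKM. Atp2b2, the calcium pump of hair bundles, was also higher there, at 4.10, 3.93 and 4.11 against 12.9, 12.4 and 13.6 RPKM, against the direction of most hair cell markers.

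Glutamate handling was led by the transporter Slc1a3, given above, which ranked 210 among all genes of pillar cells. In the list of amino acid and transmitter genes, 9 of 25 were higher in pillar cells (36%) and 4 lower (16%), with a median log2 difference of 0.57. All genes had shares of 14.7% and 14%. Glul, glutamine synthetase, the enzyme that turns glutamate into glutamine in glia, lay at 54.5 ± 1.56 against 47.9 ± 1.04 RPKM and was not called. Slc1a5, a glutamine transporter, was higher in pillar cells at 6.29, 6.06 and 6.73 against 0.879, 1.06 and 1.02 RPKM. Gad1, which makes the transmitter GABA from glutamate, lay at 11.6, 11.4 and 11.7 RPKM in the pillar cell libraries and 0.122, 0.211 and 0.218 RPKM in the Deiters' cell libraries (log2 difference 5.38 ± 0.15 SE, adjusted p = 6.2e-07), so that every pillar cell library was far above the Deiters' cell libraries, while Gad2 was near 0 in all. Slc6a14, an amino acid transporter, lay at 6.06, 5.57 and 5.55 against 0.5, 0.514 and 0.469 RPKM. The neuronal glutamate transporter Slc1a1 was listed at 0 in pillar cells and at 0.263, 0.202 and 0.244 RPKM in Deiters' cells, and its call was lost with a pseudocount of 1 RPKM.

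In the list of endothelin and purinergic genes, 6 of 23 were higher in pillar cells and 6 lower (26.1% each). All genes had 14.7% and 14%. The receptor Ednrb, given above, was the clearest. The other endothelin receptor, Ednra, was also higher in pillar cells but low, at 1.84, 1.85 and 2.02 against 0.661, 0.474 and 0.510 RPKM (log2 difference 1.64 ± 0.13), and the call was lost with a pseudocount of 1 RPKM. Of the ligands, Edn1 was at 1.11 ± 0.0268 against 0.787 ± 0.118 RPKM and not called, and Edn2 was listed at 0 in the pillar cell libraries and at 1.17, 0.852 and 1.03 RPKM in the Deiters' cell libraries. Ece1, which cuts endothelins to their active form, was higher in Deiters' cells at 9.34, 9.58 and 10.1 against 28.4, 25.9 and 27.7 RPKM (log2 difference -1.49 ± 0.05). P2rx2, the ATP-gated channel of the cochlear epithelium, was the most abundant of the list at 276 ± 3.09 against 224 ± 6.15 RPKM, and was not called. P2rx4 lay at 18.6 ± 0.711 against 16 ± 0.557 RPKM, and Entpd2, an enzyme that breaks down ATP outside the cell, was higher in pillar cells at 6.68, 6.13 and 7.33 against 2.62, 2.41 and 2.04 RPKM.

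Fibroblast growth factor signals showed calls mostly towards pillar cells, with 8 of 20 genes higher there (40%) and 4 higher in Deiters' cells (20%), and a median log2 difference of 0.77. The corresponding shares over all genes were 14.7% and 14%. Of the ligands, Fgf10 was higher in pillar cells at 20.2, 20.7 and 20.5 RPKM in the pillar cell libraries and 1.18, 1.69 and 1.33 RPKM in the Deiters' cell libraries (log2 difference 3.79 ± 0.12 SE, adjusted p = 1e-06). Fgf9 was higher in Deiters' cells, at 2.42, 2.71 and 2.74 against 10.8, 9.80 and 12.1 RPKM, and so was Fgf1, at 8.63, 9.10 and 8.59 against 20.9, 21.2 and 20.6 RPKM. Fgf8, the inner hair cell ligand of Fgfr3, and Fgf20 were listed at 0 in all libraries. Among the receptors only Fgfr4 was called, higher in Deiters' cells at 0.426 ± 0.0425 against 1.61 ± 0.0487 RPKM, and that call was lost with a pseudocount of 1 RPKM. The receptor-like Fgfrl1 and Fgfr3 were the most abundant and not called. Apart from Fgf10, the genes higher in pillar cells were targets and feedback inhibitors of the pathway. Dusp6, a phosphatase of the ERK kinases that the pathway induces, lay at 22.2, 21.2 and 21 against 6.22, 6.29 and 5.95 RPKM (log2 difference 1.79 ± 0.04). The transcription factor Etv1 lay at 6.27, 6.45 and 6.64 against 0.535, 0.485 and 0.455 RPKM (log2 difference 3.47 ± 0.08), and the inhibitor Spred2 at 1.25 ± 0.0355 against 0.218 ± 0.0685 RPKM, whose call was lost with a pseudocount of 1 RPKM. Spry1, another inhibitor, was at 15.2 ± 0.745 against 10.5 ± 0.479 RPKM and was not called.

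Notch pathway genes were called in both directions, 6 of 21 higher in pillar cells (28.6%) and 4 lower (19.0%), beside 14.7% and 14% over all genes. The ligand Jag1, which marks supporting cells, lay at 16.8, 17.1 and 17.8 against 6.52, 6.22 and 6.90 RPKM (log2 difference 1.38 ± 0.05). The ligand Dll1 lay at 1.35, 1.47 and 0.952 against 0.0218, 0 and 0.0128 RPKM (log2 difference 3.59 ± 0.20). Lfng, a glycosyltransferase that tunes Notch receptors, was also higher in pillar cells, at 8.34, 9.18 and 9.33 against 1.48, 1.93 and 1.61 RPKM (log2 difference 2.36 ± 0.10). In Deiters' cells the target Hey1 was higher, at 11.8, 12.3 and 11.2 against 40.8, 41.3 and 43.6 RPKM (log2 difference -1.83 ± 0.05), as was Hey2. The target Heyl was the most abundant of the list, at 75.7 ± 2.59 against 118 ± 4.42 RPKM, and Hes1 was at 32.0 ± 0.702 against 23.1 ± 0.785 RPKM. Neither was called, and the target Hes5 was at or near 0 in pillar cells and listed at 0 in Deiters' cells. The receptor Notch1 was higher in Deiters' cells at 1.31 ± 0.0658 against 3 ± 0.270 RPKM, a call that was lost with a pseudocount of 1 RPKM and in the lanes of set A alone.

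In the Wnt list, 7 of 35 genes were higher in pillar cells and 7 lower (20% each), beside 14.7% and 14% over all genes. Sfrp1, a secreted inhibitor, was the most abundant in pillar cells at 60.9, 62.3 and 58.9 against 22.6, 22.5 and 22.8 RPKM (log2 difference 1.42 ± 0.03). Frzb, a related inhibitor, was higher in Deiters' cells at 39.7, 36.6 and 38.6 against 341, 336 and 344 RPKM (log2 difference -3.15 ± 0.03), so the inhibitors went in opposite directions. Dkk3, of the Dickkopf family, lay at 19.8, 19.6 and 17.9 against 1.92, 1.33 and 1.29 RPKM. Lgr6, a receptor for R-spondins, lay at 9.67, 9.76 and 10.3 RPKM in the pillar cell libraries and 0.258, 0.379 and 0.313 RPKM in the Deiters' cell libraries (log2 difference 4.6 ± 0.12 SE, adjusted p = 4.7e-07). For Lgr6 all pillar cell libraries were near 10 RPKM, whereas the related Lgr5 was higher in Deiters' cells. The ligand Wnt7b was at 40.0 ± 1.09 against 36 ± 0.561 RPKM and the receptor Fzd4 at 21.1 ± 0.380 against 15.2 ± 0.591 RPKM, and neither was called. Fzd9 was higher in Deiters' cells at 17.9, 18.0 and 17.2 against 52.4, 47.7 and 47.2 RPKM.

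Genes of the BMP, TGF-beta and IGF group were called equally often in each direction, 7 of 32 (21.9% each). All genes had 14.7% and 14%. Among the BMP ligands, Bmp2 was higher in pillar cells, whereas Bmp4 was higher in Deiters' cells, at 27.3, 25.4 and 26.5 against 155, 145 and 148 RPKM. Bmp6 was higher there too, at 55.8, 54.4 and 55.3 against 120.1, 114 and 116 RPKM. Fst, follistatin, an inhibitor of activin and BMP signals, was lower in pillar cells at 6.08, 7.26 and 5.93 against 28.7, 27.7 and 29.9 RPKM (log2 difference -2.15 ± 0.08). Igfbp5, which binds insulin-like growth factors, was the most abundant of the list at 177 ± 1.35 against 224 ± 3.04 RPKM and not called. Igfbp2 was higher in pillar cells, at 83.1, 79.9 and 78.9 against 35.4, 33.0 and 33.9 RPKM. Igfbp3 lay at 7.07, 7.71 and 7.78 against 0.0889, 0.133 and 0.0857 RPKM (log2 difference 5.24 ± 0.12 SE, adjusted p = 3.5e-07), which put it just outside the set picked by value, since its Deiters' cell mean of 0.102 RPKM was above the limit. The receptor Bmpr1b was higher in pillar cells, at 7.41, 8.09 and 7.68 against 2.83, 3.32 and 3.15 RPKM. Tgfb3 was higher in Deiters' cells, at 16.1, 15.7 and 16.2 against 68.2, 67.7 and 67.2 RPKM (log2 difference -2.07 ± 0.03), and Tgfb2 was at 28.1 ± 0.845 against 28.8 ± 0.476 RPKM and not called.

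Transcription factors of supporting cells were called about as often as all genes (14.7% and 14%). Of 29 tested, 3 were higher in pillar cells (10.3%), 5 in Deiters' cells (17.2%), and the median log2 difference was 0.07. The most abundant were Id2 at 318 ± 11 against 306 ± 2.03 RPKM and Id3 at 163 ± 2.59 against 235 ± 9.78 RPKM, inhibitors of differentiation factors, with Gata3, a factor the inner ear needs, at 167 ± 2.03 against 334 ± 5.06 RPKM. None of these was called, although for Gata3 the Deiters' cell libraries were higher without overlap at a log2 difference of -1 ± 0.02. Sox9 and Sox10 were at 70.6 ± 2.82 against 56.4 ± 1.21 RPKM and 58.9 ± 3.33 against 66.1 ± 2.35 RPKM, not called. Gata2 was higher in Deiters' cells at 17.9, 17.7 and 17.9 against 82.3, 81.7 and 82.0 RPKM (log2 difference -2.20 ± 0.02). Eya1, a coactivator that inner ear development needs, was higher there at 17.1, 18.2 and 17.9 against 38.2, 37.9 and 37.6 RPKM, and so was Emx2 at 2.91 ± 0.340 against 7.08 ± 0.438 RPKM. Sox2 was the only abundant factor of the list higher in pillar cells. The other 2, Pax2 at 0.233 ± 0.0687 against 0.0220 ± 0.00675 RPKM and Esrrb at 0.190 ± 0.0376 against 0.0198 ± 0.00601 RPKM, were low, and their calls were lost with a pseudocount of 1 RPKM.

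General markers of supporting cells were present in pillar cells at a median of 33.5 RPKM, with 5 above 100 RPKM. Their sums were 14228, 13643 and 13958 RPKM against 18841, 18790.5 and 18312 RPKM in Deiters' cells, most of it Fbxo2. Of the 25 in that list, 24 were above 1 RPKM in every pillar cell library, the exception being Prox1, and 10 were higher in pillar cells (40%) against 2 in Deiters' cells (8%). The shares over all genes were 14.7% and 14%. Besides Slc1a3, Sox2, Jag1 and Lfng, the genes higher in pillar cells included Rorb, a nuclear receptor, at 32.9, 34.3 and 34.0 against 4.62, 4.74 and 4.83 RPKM (log2 difference 2.81 ± 0.04), and Slitrk6, a membrane protein that shapes innervation of the inner ear, at 61.0, 63.0 and 62.9 against 16.6, 16.2 and 16.8 RPKM. Aqp4 and Bmp4 were the genes higher in Deiters' cells. Slc1a3 belongs to the given marker set and is no independent support.

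Matrix and tectorial membrane genes were called often in both directions, 10 of 35 higher in pillar cells (28.6%) and 12 lower (34.3%). Over all genes it was 14.7% and 14%. Ceacam16 was the most abundant, as given above, and Otos, otospiralin, a small protein best known from fibrocytes of the cochlea, was next at 1806, 1778 and 1789 RPKM in the pillar cell libraries and 507, 533 and 460.0 RPKM in the Deiters' cell libraries (log2 difference 1.84 ± 0.05). Coch, cochlin, also best known from fibrocytes, lay at 703, 707 and 698 against 231, 228 and 232 RPKM (log2 difference 1.61 ± 0.02 SE, adjusted p = 3.9e-08). Otos is also on the list of fibrocyte and bone markers, of which 5 of 11 were higher in pillar cells and none in Deiters' cells. Its other members were low in pillar cells, where the osteocalcin gene Bglap2 stood at 19.4, 15.2 and 13.5 RPKM and the collagen gene Col1a1 at 0.680, 0.878 and 0.698 RPKM. Bglap2 was called, and the call was lost in lane 2 of each library alone. Sparc, a matrix protein, was higher in pillar cells at 511, 503 and 520.3 against 231, 221 and 231 RPKM. Otog, otogelin, of the tectorial membrane, lay at 47.9, 48.4 and 46.2 against 11.1, 10.1 and 10.3 RPKM. Epyc, epiphycan, a proteoglycan of the supporting cells, had the widest gap towards Deiters' cells, at 706, 708 and 707 against 4202, 4156 and 4306 RPKM (log2 difference -2.58 ± 0.02). The laminin gene Lamb1 lay at 2.25, 2.49 and 2.51 against 14.9, 13.7 and 14.4 RPKM and the collagen gene Col9a3 at 11, 10.7 and 9.84 against 38.1, 37.1 and 36.2 RPKM. Tecta, alpha-tectorin, was listed at 0 in all libraries.

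Protein quality control, a list that includes Fbxo2 and Skp1a, showed few differences, with 2 of 28 genes higher in pillar cells and 2 lower (7.14% each). Shares over all genes, to be read beside each list of this paragraph, were 14.7% and 14%. Dnajc5b, a cochaperone of the cysteine string protein family, had the widest gap and lay at 69.4, 66.3 and 70.8 RPKM in the pillar cell libraries and 1.73, 1.94 and 1.62 RPKM in the Deiters' cell libraries (log2 difference 5.21 ± 0.07 SE, adjusted p = 4.3e-08). The paper counts Dnajc5b among genes related to hair cell function, and hair cell markers were higher in the same libraries. Hspb8, a small heat shock protein, was higher in pillar cells at 7.88, 8.44 and 8.35 against 2.95, 2.56 and 2.64 RPKM. Among 25 genes of glycolysis and fuel use, none was higher in pillar cells and 3 were higher in Deiters' cells (12%). The most abundant were Ldhb at 657 ± 4.08 against 708 ± 3.54 RPKM and Ckb, brain creatine kinase, at 406 ± 9.14 against 308 ± 4.79 RPKM, neither of them called. Among the 3, Eno2, the neuronal enolase, was lower in pillar cells at 1.10, 0.846 and 0.909 against 4.58, 4.07 and 4.38 RPKM (log2 difference -2.09 ± 0.11). Of 38 antioxidant genes, 4 were higher in pillar cells (10.5%) and none in Deiters' cells. Apart from Gpx2 these were Sod3, the superoxide dismutase outside the cell, at 5.26, 5.20 and 5.49 against 1.56, 1.06 and 1.18 RPKM (log2 difference 2.01 ± 0.14), Mt1, a metallothionein, at 34.2, 35.0 and 32.2 against 16.2, 16.7 and 15.9 RPKM, and Gsto1, a glutathione transferase, at 1.18, 1.17 and 1.09 against 0.307, 0.527 and 0.463 RPKM. The Gsto1 call was lost in 3 of the alternative settings, among them the lanes of set B alone. The broadly used peroxidases Gpx4 and Gpx1 were at 456 ± 12 against 623 ± 16.7 RPKM and 203 ± 4.68 against 268 ± 5.66 RPKM, so that in pillar cells Gpx2 was the most abundant of the family and in Deiters' cells Gpx4 was.

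Genes of the cell cycle were mostly low. Among the inhibitors, 2 of 10 were called, both higher in pillar cells (20%, beside 14.7% over all genes). Cdkn2d, which blocks the kinases that start the cycle, lay at 118, 112 and 124 RPKM in the pillar cell libraries and 50.1, 48.2 and 45.0 RPKM in the Deiters' cell libraries (log2 difference 1.3 ± 0.05 SE, adjusted p = 2.9e-06). Cdkn1c, of another family of such inhibitors, lay at 25.7, 24.1 and 24.2 against 10.7, 10.5 and 10.7 RPKM (log2 difference 1.21 ± 0.04). Cdkn1b, the inhibitor known for keeping supporting cells out of the cycle, was at 7.45 ± 0.107 against 6.35 ± 0.690 RPKM and was not called. Of 22 proliferation genes, 3 were higher in pillar cells (13.6%) and 4 lower (18.2%), near the shares of 14.7% and 14% over all genes. Mki67 and Top2a, marks of dividing cells, were below 1 RPKM in each library, at 0.391 ± 0.0146 against 0.356 ± 0.0288 RPKM and 0.434 ± 0.0337 against 0.312 ± 0.0289 RPKM. Plk1, a mitotic kinase, was higher in pillar cells at 3.96, 4.26 and 3.91 against 0.570, 0.378 and 0.512 RPKM (log2 difference 2.83 ± 0.14). Mcm2, a helicase subunit of replication, was lower at 0.0496, 0.118 and 0.0656 against 3.15, 2.75 and 3.48 RPKM, and so was the cyclin Ccnd1, at 0.294, 0.323 and 0.488 against 2.53, 2.27 and 2.03 RPKM. Immediate early genes, which respond to stress and to cell isolation, were called higher in pillar cells in 5 of 18 cases and in none in Deiters' cells. The share higher in pillar cells was 27.8%, beside 14.7% over all genes. The 5 were all below 5 RPKM, with Nr4a1 the highest at 4.28, 3.79 and 4.85 against 0.749, 0.839 and 1.41 RPKM (log2 difference 2.04 ± 0.23). Abundant members such as Jund at 119.8 ± 7.65 against 110.0 ± 1.81 RPKM and Dusp1 at 94.0 ± 2.58 against 56.2 ± 1.76 RPKM were not called, and Fos was at 2.09 ± 0.272 against 2.37 ± 0.482 RPKM.

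**Figure D3:**
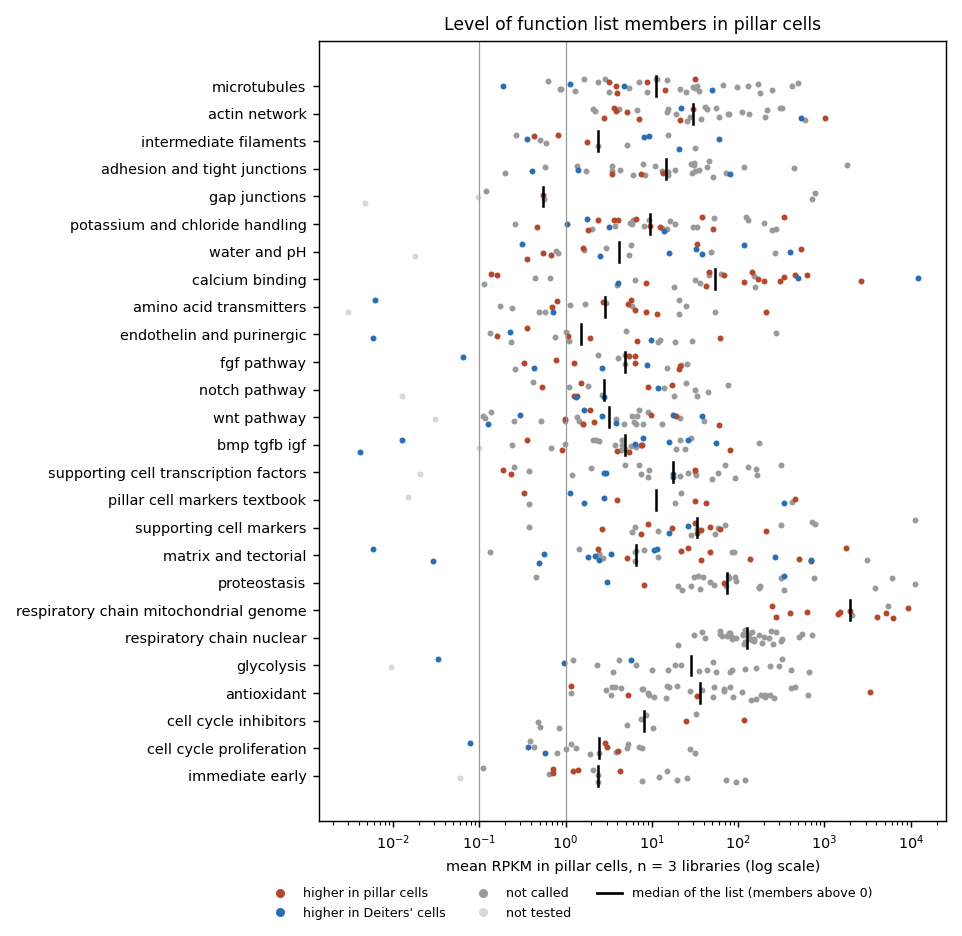
Mean RPKM in pillar cells (log axis, n = 3 libraries) of every member above 0 of 26 function lists, coloured by the call between cell types, with a black bar at the median of each list and grey lines at 0.1 and 1 RPKM. Genes of the mitochondrial genome lie furthest to the right and 11 of 13 are higher in pillar cells, calcium-binding genes have 15 of 31 higher in pillar cells, and nuclear genes of the respiratory chain have no call.

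The 79 genes picked by value were low in pillar cells for the most part. Their median was 1.58 RPKM, 5 were above 5 RPKM, 24 were above 2 RPKM, and together they made up 0.0419% of the summed RPKM. They were 0.708% of the 11163 genes above 1 RPKM in every pillar cell library. The reads behind a gene over the 3 libraries ran from 24.0 to 3339, with a median of 292. In Deiters' cells 30 of the 79 were listed at 0 in every library. The reverse rule, above 1 RPKM in every Deiters' cell library and below 0.1 RPKM on average in pillar cells, gave 60 genes.

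By class, 56 were protein coding, 15 noncoding or uncertain transcripts, 7 immunoglobulin or T cell receptor segments and 1 a pseudogene, and 19 carried predicted names. Protein-coding genes made up 70.9% of the set against 94.4% of all genes above 1 RPKM in every pillar cell library. The median exon length was 3324 bases against 4106. They lay on 19 chromosomes, with 10 of them on chromosome 6. For 16 genes (20.3%) an exon overlapped a gene on the other strand, against 32.0% of the wider set, and as the library kit does not mark strand, reads of such partners cannot be told apart. Among them were Gpr152, which overlaps Cabp4, Iglc3, Gcnt4, Kcnmb4, Spns2, Grin2c and Icam1.

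Gpr152, an orphan G protein-coupled receptor on chromosome 19 (4139787 to 4145740, GRCm38, as for all gene positions here), was the highest of the set at 9.58, 9.64 and 9.15 RPKM in the pillar cell libraries and 0, 0 and 0.0137 RPKM in the Deiters' cell libraries. Cpa6, a carboxypeptidase of the extracellular matrix (chromosome 1, 10324720 to 10719945), lay at 5.73, 5.89 and 5.53 against 0.0611, 0.129 and 0.0706 RPKM. Slitrk3, an adhesion protein that organises synapses (chromosome 3, 73047265 to 73057803), lay at 5.34, 4.94 and 4.91 against 0.105, 0.0429 and 0.0664 RPKM. As the rule picked genes by this contrast, the gap between the cell types in each of these is no separate result. Otol1, otolin, a collagen-like protein known from the matrix that holds otoconia (chromosome 3, 70007613 to 70028708), lay at 4.70, 5.40 and 5.43 against 0.0217, 0.0958 and 0.149 RPKM. Insc, which orients the spindle in dividing cells (chromosome 7, 114743694 to 114850383), lay at 4.09, 3.85 and 3.79 against 0.0752, 0.0696 and 0.0866 RPKM. Tas1r1, a subunit of the umami taste receptor, was at 2.99, 3.87 and 3.26 against 0.0648, 0.0544 and 0.150 RPKM.

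Cdh23, the cadherin of the tip link in the hair bundle, lay at 3.30, 3.44 and 3.37 against 0.107, 0.0827 and 0.108 RPKM and is on the hair cell list. Cntnap3, a contactin-associated protein of the neurexin family, was at 2.62, 3.24 and 3.41 against 0.00944, 0.0106 and 0 RPKM. Fstl4, a follistatin-like protein, lay at 2.95, 2.81 and 2.75 RPKM in pillar cells, and Gcnt4, a glycosyltransferase, at 2.73, 2.50 and 2.88 RPKM, and both were listed at 0 in every Deiters' cell library. The constant segment Iglc3 of the immunoglobulin lambda chain (chromosome 16, 19065230 to 19065681) lay at 6.47, 6.96 and 6.91 RPKM. The variable segments Ighv5-17 and Trbv13-2 lay at 4.04, 3.88 and 4.76 RPKM and 4.08, 2.63 and 3.37 RPKM. All 3 were listed at 0 in every Deiters' cell library. These are genes of B and T cells, and other B cell markers were higher in the same libraries, as given below. Also in the set and on a list were the endothelial marker Pecam1 at 1.42 ± 0.121 RPKM, the ATP-gated channel P2rx5 at 1.06 ± 0.0264 RPKM, Egr2 at 1.22 ± 0.261 RPKM and Bmp2, given above.

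Several further genes of the set code for parts of synapses and channels, and the genes of this paragraph were chosen after their values were seen. Gria4, a subunit of glutamate receptors of the AMPA type, lay at 1.99, 2.38 and 1.98 against 0.0907, 0.0761 and 0.0436 RPKM. Grin2c, a subunit of the NMDA type, lay at 2.12, 1.98 and 2.08 RPKM and was listed at 0 in Deiters' cells. Kcnmb4, an auxiliary subunit of the channel coded by Kcnma1, was at 2.76, 1.78 and 2.34 against 0.0141, 0 and 0.0323 RPKM. The growth factor Gdnf lay at 1.23, 1.31 and 1.55 RPKM and the receptor kinase Erbb4 at 1.28, 1.53 and 1.38 RPKM, and in Deiters' cells Gdnf was listed at 0 and Erbb4 lay at 0.0525, 0.0378 and 0.0347 RPKM. Adcy8, an adenylyl cyclase that calcium activates, lay at 1.53, 1.55 and 1.62 RPKM, and Itpka, a kinase of inositol phosphates, at 1.77, 2.51 and 1.92 RPKM.

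Of the other protein-coding genes of the set with a full name, transcription factors were Hhex at 1.96 ± 0.444 RPKM, Rfx2 at 1.74 ± 0.172 RPKM and Mkx at 1.37 ± 0.289 RPKM. Receptors and adhesion proteins included Klrg2 at 2.52 ± 0.375 RPKM, Klrb1f at 1.91 ± 0.195 RPKM, Icam1 at 1.5 ± 0.0856 RPKM and Cd2 at 1.32 ± 0.0864 RPKM, with Cd300lb at 1.37 ± 0.344 RPKM and Itgb2l at 1.35 ± 0.0290 RPKM. Transporters were Spns2, which exports sphingosine phosphate, at 2.33 ± 0.178 RPKM, Slc5a1, a sodium and glucose transporter, at 1.37 ± 0.175 RPKM and Abcd2, of peroxisomes, at 1.4 ± 0.0362 RPKM. The cytoskeletal genes were Syne1, a giant linker between nucleus and cytoskeleton, at 1.23 ± 0.0291 RPKM and Diaph3, a formin, at 1.15 ± 0.0386 RPKM. Protocadherins Pcdh18 and Pcdhb3 lay at 1.61 ± 0.241 and 1.52 ± 0.134 RPKM, and the receptor kinase Alk at 1.09 ± 0.0947 RPKM. Among the noncoding members was Gad1os, an antisense transcript named after Gad1, at 1.21, 1.17 and 1.11 RPKM and 0 in Deiters' cells, while Gad1 itself was outside the rule with 0.183 ± 0.0536 RPKM in Deiters' cells.

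At the edges the rule cut through a continuum. Just inside the pillar cell limit were Cd300lb, Bcl2l15 and Egr2, whose lowest libraries were at 1.02, 1.02 and 1.03 RPKM, and just outside were Epb42, Lhx3 and Pcdhb10 at 0.982, 0.976 and 0.953 RPKM. On the side of Deiters' cells Cdh23 (0.0990 RPKM), Trbv12-2 (0.0914 RPKM) and Trav1 (0.0904 RPKM) were just inside, and Igfbp3 (0.102 RPKM), Lctl (0.103 RPKM) and Myo3a (0.104 RPKM) just outside. With a pillar cell limit of 0.5 RPKM the set had 221 genes and with 2 RPKM 19, and with a Deiters' cell limit of 0.2 RPKM it had 140. Of the 79, 58 were above 1 RPKM in each of the 6 pillar cell lanes. The lanes of set A alone gave 90 genes, 67 of them among the 79, and those of set B gave 80, with 61 among the 79, and 53 were in all 3 versions.

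**Figure D4:**
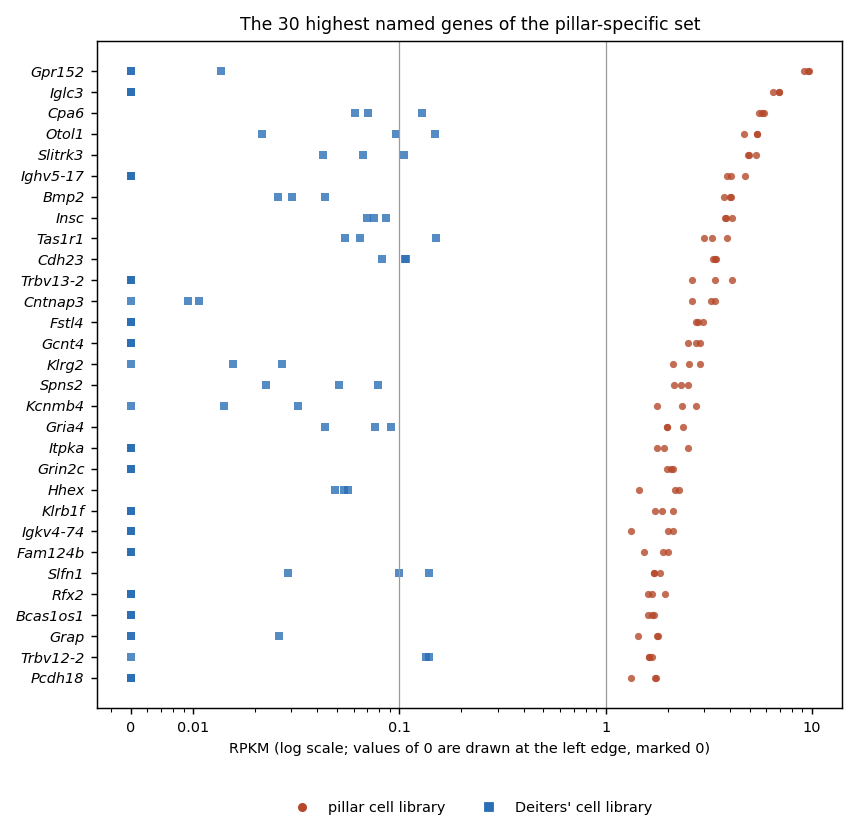
RPKM on a log axis in each pillar cell library (circles) and Deiters' cell library (squares) for the 30 highest genes of the set picked by value that are neither predicted genes nor pseudogenes, with values of 0 at the left edge and lines at the limits of 0.1 and 1 RPKM. Gpr152 is the highest, at 9.15 to 9.64 RPKM, and all but 5 of the 79 are at or below 5 RPKM on average in pillar cells.

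Promoter sequences were looked up in RefSeq (GRCm38.p6) for the 79 genes, and 47 matched by name, with 61 promoters. Gpr152, Cpa6 and Bmp2 had no match. The sequences below are the 250 bases before the start that the RefSeq table gives for 3 genes of the set, Otol1, Slitrk3 and Insc, and for the markers Gpx2 and Slc1a3. They are shown as the start regions of genes that were high in pillar cells next to Deiters' cells. For Otol1 and Gpx2 the window ends at the outer start of the GENCODE M21 gene and for Slc1a3 it lies shortly before it, while for Slitrk3 and Insc it lies inside the M21 gene, at an internal start. They read from 5′ to 3′ on the strand of the gene, and capitals mark matches of the TATA box (TATAAA), of the CCAAT box (its name gives its letters) and of the GATA motif (likewise), on either strand, so that a match on the other strand shows as the reverse complement. The windows are chr3:70007363-70007612 (plus strand) for Otol1, chr3:73057067-73057316 (minus) for Slitrk3, chr7:114745516-114745765 (plus) for Insc, chr12:76795555-76795804 (minus) for Gpx2 and chr15:8710808-8711057 (minus) for Slc1a3.
Otol1: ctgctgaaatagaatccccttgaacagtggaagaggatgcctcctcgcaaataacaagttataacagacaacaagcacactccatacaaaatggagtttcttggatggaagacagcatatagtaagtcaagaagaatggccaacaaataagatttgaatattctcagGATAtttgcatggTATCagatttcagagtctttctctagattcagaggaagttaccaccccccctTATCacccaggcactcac
Slitrk3: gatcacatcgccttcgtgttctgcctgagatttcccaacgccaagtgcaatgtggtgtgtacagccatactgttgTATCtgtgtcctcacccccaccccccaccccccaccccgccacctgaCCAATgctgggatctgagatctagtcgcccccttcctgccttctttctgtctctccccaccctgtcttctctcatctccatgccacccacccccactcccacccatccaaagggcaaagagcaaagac
Insc: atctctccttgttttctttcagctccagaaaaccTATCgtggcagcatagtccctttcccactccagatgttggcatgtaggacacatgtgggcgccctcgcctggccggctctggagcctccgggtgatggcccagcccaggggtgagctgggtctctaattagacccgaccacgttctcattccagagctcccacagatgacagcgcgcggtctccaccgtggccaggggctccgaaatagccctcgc
Gpx2: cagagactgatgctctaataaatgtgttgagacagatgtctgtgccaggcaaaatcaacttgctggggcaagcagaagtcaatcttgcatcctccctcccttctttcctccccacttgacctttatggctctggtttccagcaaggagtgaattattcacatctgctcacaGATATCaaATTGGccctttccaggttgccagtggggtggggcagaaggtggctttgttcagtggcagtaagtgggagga
Slc1a3: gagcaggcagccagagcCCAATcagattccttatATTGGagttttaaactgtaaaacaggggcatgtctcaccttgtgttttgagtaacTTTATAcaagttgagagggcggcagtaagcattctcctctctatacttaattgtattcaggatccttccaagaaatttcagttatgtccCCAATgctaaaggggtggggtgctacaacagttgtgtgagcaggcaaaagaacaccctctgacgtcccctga

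Among them, Otol1 had 3 matches of GATA, Slitrk3 had 1 of GATA and 1 of CCAAT, and Insc had 1 of GATA. Gpx2 had a GATA on each strand that overlap in a palindrome, and 1 CCAAT, while Slc1a3 had 3 of CCAAT and 1 of TATAAA. Over the 61 promoters of the set, TATAAA was found in 4.92%, CCAAT in 42.6% and GATA in 41.0%, on both strands. The same motifs were in 6.17%, 35.2% and 41.1% of the 10659 promoters of genes above 1 RPKM in every pillar cell library, and in 12.4%, 33.8% and 53.6% of all 32851 promoters of the table. The median GC content was 57.2% in the set, 60% in the wider set and 52.4% over all promoters. These are matches of letters and were not tested as sites.

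The pillar cell libraries varied little among themselves. Without the 526 features that differ by lane set, the median coefficient of variation over the 3 libraries was 6.66% for genes at 1 to 10 RPKM, where counting of reads alone gives 5.52%, and it was 3.25% against 2.48% at 10 to 100 RPKM and 2.20% against 1.14% at 100 to 1000 RPKM. For the 29 genes above 1000 RPKM it was 3.14% against 0.319% from counting. For genes above 100 RPKM, the SD of the log2 ratio was 0.041 between the lanes of a library within a lane set (1 pair of lanes), and 0.064 to 0.067 between libraries within a lane set. Between lanes of different sets it was 0.098 to 0.101 within a library and 0.109 to 0.111 between libraries. Lanes of different sets thus differed more than libraries within a set, also without the 526 features.

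Where a gene did vary between pillar cell libraries, it usually differed by lane set. Of the 4710 genes above 10 RPKM, 145 had a coefficient of variation over 20%, and 127 of these differed by lane set, as did each of the 60 most variable. The named genes at the top of that order were low in library 2, whose lanes both belonged to set B. Rnasek, a small ribonuclease, lay at 111, 6.45 and 111 RPKM and Timm23, of the mitochondrial import channel, at 39.8, 5.40 and 39.6 RPKM. Mrpl53, a mitochondrial ribosomal protein, stood at 24.3, 0.863 and 25.6 RPKM and Pgk1, a glycolytic enzyme, at 60, 13.7 and 58.8 RPKM. Scamp4, Fam89b, Tmem254a, Rpl10, Rps12-ps3 and Nutf2-ps1 completed the 10, and in each of them library 2 was the lowest. None of the 10 was called between the cell types.

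Markers of other cells moved with the comparison in both directions. Over all genes 14.7% were called higher in pillar cells and 14% higher in Deiters' cells. The counts here and in the next paragraph are to be read beside these shares. Beside the hair cell list, 9 of 11 markers of B and plasma cells were higher in pillar cells and 1 lower, with sums of 54.8, 60.9 and 57.2 RPKM against 19.4, 18.7 and 19.3 RPKM, led by Igkc at 15.6, 19.4 and 17.0 RPKM, while the B cell gene Ms4a1 stood at 0.0160, 0.0255 and 0.0589 RPKM and Pax5 was listed at 0. Blnk, an adaptor of the B cell receptor, was the lower one, at 1.12, 1.11 and 1.17 against 5.94, 5.54 and 6.39 RPKM. Neutrophil markers were higher in 10 of 16 cases and lower in 3, with sums of 543, 561 and 558 RPKM against 274, 302 and 278 RPKM. Ngp was among those higher in pillar cells, at 125, 127 and 129.6 against 7.2, 8.41 and 10.1 RPKM. The early granule gene Elane was lower, at 11, 9.84 and 9.58 against 58.2, 59.6 and 57.4 RPKM, and so was Mpo, at 7.12, 6.38 and 7.39 against 39.3, 38.4 and 40.4 RPKM. Eosinophil markers were at or near 0 in the pillar cell libraries, with sums of 0.0687, 0.565 and 0.219 RPKM against 92.0, 94.8 and 92.5 RPKM. Platelet markers were higher in Deiters' cells in 6 of 8 cases, with sums of 9.45, 10.2 and 12.5 RPKM against 34.9, 36.6 and 32.3 RPKM.

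Of the markers of Hensen and Claudius cells and the outer sulcus, 7 of 14 were higher in Deiters' cells and 4 lower, with sums of 1366, 1364 and 1364 RPKM against 5324, 5269.9 and 5429 RPKM, most of it Epyc. Macrophage markers were higher in pillar cells in 5 of 12 cases and lower in 1, with a median log2 difference of 0.10. Lyz2, which neutrophils also express, was the highest at 103, 102 and 96.8 against 40.9, 44.0 and 43.3 RPKM, while C1qa, at 3.35 ± 0.385 against 3.34 ± 0.452 RPKM, C1qb, at 6.95 ± 0.981 against 6.11 ± 0.891 RPKM, and Cd68, at 3.55 ± 0.176 against 3.50 ± 0.0472 RPKM, were not called. Endothelial markers summed to 12.6, 13.4 and 12.4 RPKM against 5.83, 5.72 and 5.44 RPKM, with Emcn at 9.50, 9.97 and 9.23 RPKM as the highest in pillar cells. Red cell markers summed to 4813, 4884 and 4806 RPKM against 3248, 3463 and 2979 RPKM, nearly all of it the 4 haemoglobin genes that differ by lane set. Fibrocyte and bone markers summed to 1851, 1818 and 1832 RPKM against 525, 555 and 478 RPKM, nearly all of it Otos. Of 11 markers of Schwann cells and glia, 3 were higher in pillar cells and 1 lower, and of 11 neuron markers, 3 and 4. Strial and melanocyte markers had 2 calls of 9 in each direction, and T and NK cell markers 1 of 2 tested in each. The part of these cells in the profile was not tested.

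**Figure D5:**
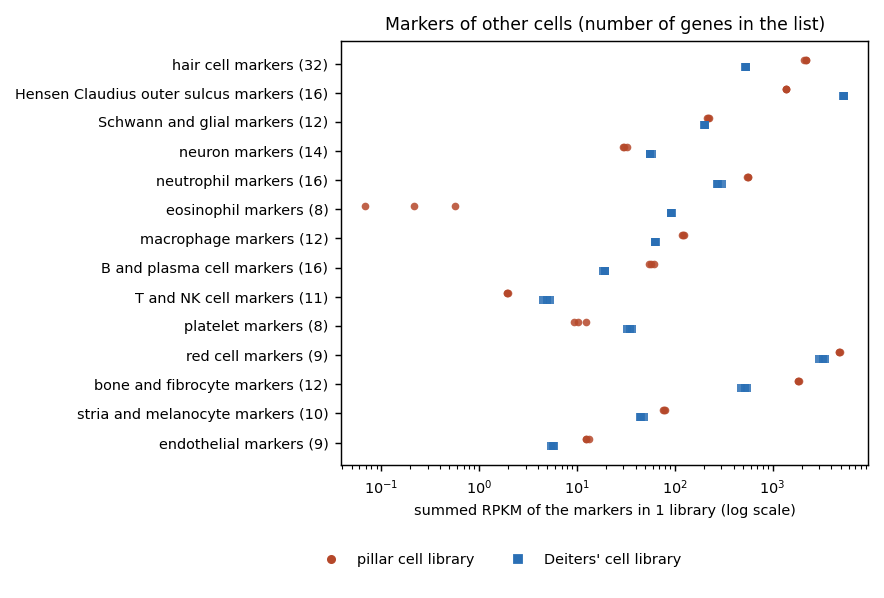
Summed RPKM of marker lists of other cells (log axis; number of genes in brackets) in each pillar cell library (circles) and Deiters' cell library (squares). Hair cell, neutrophil, B cell, fibrocyte, macrophage, endothelial, red cell, Schwann cell and strial lists are higher in every pillar cell library. Eosinophil, platelet, Hensen cell, neuron and T and NK cell lists are higher in every Deiters' cell library.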

How the data were processed

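RNA of pillar cells or Deiters' cells, picked singly and pooled, was amplified with a SMARTer kit and sequenced, and each library had 2 lanes. The authors deposited RPKM values per gene and lane, made from paired-end reads mapped to mm10 (GRCm38) with CLC Genomics Workbench. The annotation release is not given in the sources used here. The kit does not mark strand. Lanes of a library were averaged, and the 6 library values were tested with limma 3.58.1 in R 4.3.3 (lmFit, eBayes with trend) on log2(RPKM + 0.1), with Benjamini-Hochberg adjustment over 17188 genes above 0.1 RPKM on average in either cell type. The fit was tested on simulated data. Whole reads were recovered, within 0.01 of a whole number, for 72.5% of 16706 features, so depth is an estimate and no count test was run. Lane sets were seen in the data and did not enter the main test. They were used to mark features, which were left out of the median coefficients of variation. They also gave the settings with the lanes of each set alone.

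The members and all 40 gene lists were chosen with earlier results of these data known. Named genes were the 6 given markers, the 20 most abundant genes, of each list the 4 most abundant members and the 3 with the smallest p in each direction, the 15 highest genes of the set picked by value, its list members and the 3 nearest each limit, and the 10 most variable genes above 10 RPKM that are not predicted genes. A few genes are not reported here, whether or not the rule names them. Every other gene named was chosen after its values were seen. Gene classes and positions came from GENCODE M21 (48058 of 48440 features matched), and promoters from RefSeq GRCm38.p6. The alternatives were another pseudocount (0.01 or 1 RPKM), filter, scaling or lane, each library left out and a replicate block, and, chosen after seeing the data, the lanes of each set alone.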

Additional observations from a re-analysis of the deposited data

How the results depend on the processing

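With a pseudocount of 1 RPKM in place of 0.1, which shrinks the differences of low genes, 1001 genes were higher in pillar cells and 778 lower, against 2534 and 2404. With only genes above 1 RPKM tested, which leaves fewer genes, the counts were 1572 and 1224. Leaving out each library in turn gave 2401 to 2482 and 2221 to 2380 genes, 300 to 310 list members called (309 with all libraries) and 77 to 93 genes in the set picked by value (79 with all). The set had 140 genes with a Deiters' cell limit of 0.2 RPKM, 221 with a pillar cell limit of 0.5 RPKM and 19 with one of 2 RPKM. The number of genes above 1 RPKM was 11532 to 11556, and the median coefficient of variation above 10 RPKM 2.43% to 2.64%, when a pillar cell library was left out. Deviations of same-numbered libraries correlated at -0.03, 0.03 and 0.06, within the range of differently numbered ones (-0.095 to 0.066). The replicate numbers thus gave no sign of pairing, but such correlations cannot exclude shared mice. The replicate block gave 2450 and 2253 genes and 302 list members called. Among named genes it ended the calls of Etv4, Fcgr1 and Gja1. Of 251 named genes that were called, 204 kept the call under every alternative that tested them, 44 lost it with a pseudocount of 1 RPKM, and 7 at most lost it under any other. Tmem254a, which differs by lane set, went from a log2 difference of -0.71 that was not called to 1.04 in the lanes of set A alone, a setting chosen after seeing the data, and was called in no other setting. In those lanes 2306 genes were higher in pillar cells, 2139 of them shared with the 2534, and in the lanes of set B alone 2379, with 2219 shared. For a 1 kb transcript a single read is 0.052 RPKM, so genes near the 0.1 RPKM limit rest on few reads.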

Other observations

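Several of the 100 most abundant genes of pillar cells belong to none of the lists, and those given here were chosen after their values were seen. Fcrlb, a protein related to antibody receptors, lay at 996, 963 and 977 RPKM in the pillar cell libraries and 55.9, 49.8 and 51.3 RPKM in the Deiters' cell libraries (log2 difference 4.22 ± 0.05 SE, adjusted p = 2.9e-08). Cd164l2, a membrane protein related to the sialomucin CD164, lay at 597, 557 and 544 against 24.4, 21.9 and 22.9 RPKM (log2 difference 4.61 ± 0.05). Both were thus far above the Deiters' cell libraries, and both ranked among the 70 most abundant genes, at 33 and 67.

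Pcp4, a small protein that binds calmodulin, lay at 637, 568 and 637 against 106, 116 and 115 RPKM (log2 difference 2.45 ± 0.06). Tspan13, a tetraspanin, lay at 529, 523 and 525 against 130.3, 132 and 130.5 RPKM (log2 difference 2.01 ± 0.02). Vmo1, a protein named for the vitelline membrane of the egg, was at 639, 615 and 611 against 195, 196 and 174 RPKM (log2 difference 1.73 ± 0.05). For these 3 genes no library of a cell type overlapped with the other cell type. Anxa5, annexin A5, which binds phospholipids with calcium, lay at 1484 ± 16.9 against 538 ± 3.29 RPKM, Apod, apolipoprotein D, at 868 ± 18.7 against 343 ± 10.8 RPKM, and Spp1, osteopontin, at 454 ± 3.22 against 199 ± 5.67 RPKM, and all 3 were called higher in pillar cells. The markers of hair cells given in the report were higher in the same libraries, and their part in these values was not tested.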
